A study of Mus musculus with 8 samples.

Results

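The globin genes were followed in whole liver from neonatal mice that lack myosin Vb. All 7 genes of the set, taken by name, were found among the 48440 genes of the count table by their Ensembl identifier: the adult alpha genes Hba-a1 and Hba-a2, the embryonic alpha-type gene Hba-x, the adult beta genes Hbb-bs and Hbb-bt, and the embryonic beta-type genes Hbb-bh1 and Hbb-y. Expression was measured by RNA sequencing in 4 CD1 pups with a germline deletion of Myo5b (knockout, animals 275, 276, 277 and 278) and in 4 control pups (animals 279, 280, 281 and 282). The controls are labelled heterozygous/wildtype as one class, so the genotype of each control pup is not known. The deletion is germline and so not limited to hepatocytes or to blood cells. Livers were collected when pups were between 3 and 8 days old. The controls are described as littermates of the knockouts, but no age, sex or litter is stated for any single pup, so age and genotype cannot be told apart. Each library is a separate animal.

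Hemoglobin is built from alpha-type and beta-type chains, each holding a heme. In the mouse, red cells that arise in the yolk sac make the embryonic chains, and the definitive red cells of fetal liver, bone marrow and spleen make the adult chains. The liver is the main site of red cell production before birth, and its erythroblast islands disappear in the days after it. Globin RNA in a whole neonatal liver therefore comes from erythroblasts in the tissue and from reticulocytes in its blood.

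The alpha cluster lies on chromosome 11 and the beta cluster on chromosome 7 (GRCm38, GENCODE M21). Hba-x spans chr11:32276400-32278116, Hba-a1 chr11:32283511-32284465 and Hba-a2 chr11:32296489-32297298, all on the plus strand. On the minus strand of chromosome 7 lie Hbb-bt (chr7:103812524-103813996), Hbb-bs (chr7:103826534-103828096), Hbb-bh1 (chr7:103841637-103843164) and Hbb-y (chr7:103851749-103853216). All 7 are annotated as protein coding.

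The adult genes come in near-identical pairs, which bears on how their reads can be counted. Over 426 coding bases Hba-a1 and Hba-a2 differed at 1 (C381T), and over 441 coding bases Hbb-bs and Hbb-bt differed at 1 (C417T), with positions counted from 1 at the A of the start codon. The coding sequences around these differences are shown to make plain how little separates the copies, with the differing base in capitals.
Hba-a1: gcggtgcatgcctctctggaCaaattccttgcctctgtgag
Hba-a2: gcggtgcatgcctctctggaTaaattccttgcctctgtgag
Hbb-bs: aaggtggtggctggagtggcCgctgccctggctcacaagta
Hbb-bt: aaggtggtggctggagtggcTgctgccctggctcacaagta
These stretches lie at chr11:32284323-32284363, chr11:32297140-32297180, chr7:103826672-103826712 and chr7:103812663-103812703 of GRCm38. Of all 50-base windows of the main transcript, 32.5% in Hba-a1, 13.1% in Hba-a2, 34.2% in Hbb-bs and 41.7% in Hbb-bt occurred in the transcripts of no other gene. For Hba-x, Hbb-bh1 and Hbb-y every such window was unique to the gene. Hbb-bs is 74.4% identical to Hbb-y and 73.9% to Hbb-bh1 in its coding bases, and Hba-a1 is 61.7% identical to Hba-x. The sources used here do not state how reads that map to several places were treated, which makes the split between members of an adult pair uncertain.

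The promoters of the adult and embryonic genes share short motifs. The bases just upstream of the RefSeq start (GRCm38.p6) are shown for an adult beta, an adult alpha and an embryonic beta-type gene, as an example of each. Capitals mark the forward-strand matches to CACCC, the box bound by the erythroid factor KLF1 in the adult beta promoter, to CCAAT, and to the TATA box letters TATAA.
Hbb-bs: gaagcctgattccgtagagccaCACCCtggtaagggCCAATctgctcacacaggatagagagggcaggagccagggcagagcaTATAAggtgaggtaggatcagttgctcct
Hba-a2: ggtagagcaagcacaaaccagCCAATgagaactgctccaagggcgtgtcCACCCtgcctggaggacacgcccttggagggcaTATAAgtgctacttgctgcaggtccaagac
Hbb-y: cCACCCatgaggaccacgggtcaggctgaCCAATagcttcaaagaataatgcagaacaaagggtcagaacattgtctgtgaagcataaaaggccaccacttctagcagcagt
They lie at chr7:103827929-103828040 (minus strand), chr11:32296380-32296491 (plus strand) and chr7:103853208-103853319 (minus strand). The Hba-a1 promoter window was identical to that of Hba-a2 over all 297 bases compared. In the 250 bases upstream of the start, searched on both strands, CACCC and GATAA, a form of the site bound by GATA1, were found in all 6 of the globin promoters that could be matched (Hbb-bh1 was not among them). CCAAT was found in all of them but Hba-x, and TATAA in all of them but Hbb-y. Among 32851 RefSeq promoters, 52.0% held CACCC, 33.8% CCAAT, 22.6% GATAA and 22.8% TATAA in the same window. A match is a description of the letters and not evidence of binding.

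Libraries held 14228268 to 18398039 counts. Myo5b was 2.69-fold lower in knockout than in control livers (log2 fold change -1.43, SE 0.18, edgeR quasi-likelihood adjusted p = 3.14e-04), with no overlap between the groups. Hepatocyte markers were abundant in all 8 libraries, as the tissue label says: the summed level of Alb, Ttr, Apoa1, Serpina1c, Fgb and Ahsg was 70425 to 84808 CPM in knockout and 95324 to 121038 CPM in control livers. CPM, the unit of level used throughout, is a gene's count divided by the library's TMM-scaled total and brought to a common library size.

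All 4 adult globins fell in the knockout livers, and the 3 embryonic globins were at or near 0 counts in both groups. The adult genes fell together and by almost the same factor, 3.28-fold to 3.48-fold. Over all genes tested, 20.7% were called at an adjusted p under 0.05 (11.4% lower and 9.27% higher in knockout), and the 4 adult globins, the only globins among the 7 that passed the filter on low counts, were all called lower and all at least 2-fold lower, as were 3.68% of all genes tested. Of 18274 genes tested, 1.16% had a log2 fold change as low as or lower than that of Hba-a1, the adult globin that changed least. In whole liver, fewer erythroid cells and less globin RNA per cell cannot be told apart.

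Hba-a1, which encodes the adult alpha chain, had the highest level of the 7. It stood at 795, 1063, 796 and 1542 CPM in knockout livers 275, 276, 277 and 278, against 4016, 3191, 2673 and 3889 CPM in control livers 279, 280, 281 and 282. Every knockout lay below every control, and the highest knockout (278) reached 57.7% of the lowest control (281). The group means were 1049 ± 352 CPM in knockout and 3442 ± 628 CPM in control livers (SD, n = 4 each). The log2 fold change was -1.71 (SE 0.25, adjusted p = 0.00276).

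Hba-a2, the second gene for the same adult alpha chain, had 251, 325, 253 and 507 CPM in knockout livers 275 to 278, against 1275, 1068, 931 and 1218 CPM in control livers 279 to 282. The groups did not overlap, and the order of the livers within each group was that of Hba-a1: knockout 278 was highest among knockouts and control 281 lowest among controls for both genes. The means were 334 ± 121 CPM in knockout and 1123 ± 155 CPM in control livers. The log2 fold change was -1.75 (SE 0.25, adjusted p = 0.0025).

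Hbb-bs, an adult beta gene of the haplotype that the C57BL/6J reference genome carries, had 400, 494, 347 and 735 CPM in knockout livers 275 to 278. In control livers 279 to 282 it had 1823, 1582, 1596 and 1764 CPM. The controls lay close together, with an SD of 7.13% of their mean, while the SD of the knockouts was 34.8% of theirs, with liver 278 highest. Hbb-bs averaged 494 ± 172 CPM in knockout and 1691 ± 121 CPM in control livers, a log2 fold change of -1.78 (SE 0.23, adjusted p = 9.64e-04).

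Hbb-bt, its neighbour in the same haplotype, had 339, 432, 295 and 613 CPM in knockout livers and 1551, 1300, 1394 and 1598 CPM in control livers, in the order given above. Its highest knockout value was 47.2% of its lowest control value. The means were 420 ± 141 CPM in knockout and 1461 ± 138 CPM in control livers, and the log2 fold change was -1.80 (SE 0.22, adjusted p = 8.58e-04). CD1 is an outbred stock, and no source used here states the beta haplotypes of these pups.

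For all 4 adult genes the knockout values lay entirely below the control values, as was so for 12.8% of all genes tested. Knockout 278 stood highest among the knockouts in each of the 4. Without it the log2 fold changes were the largest of all the leave-one-out fits, from -1.96 for Hba-a1 to -2.04 for Hbb-bt. The calls of all 4 genes held in all 18 alternative fits, with log2 fold changes of -2.04 to -1.60.

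**Figure D1:**
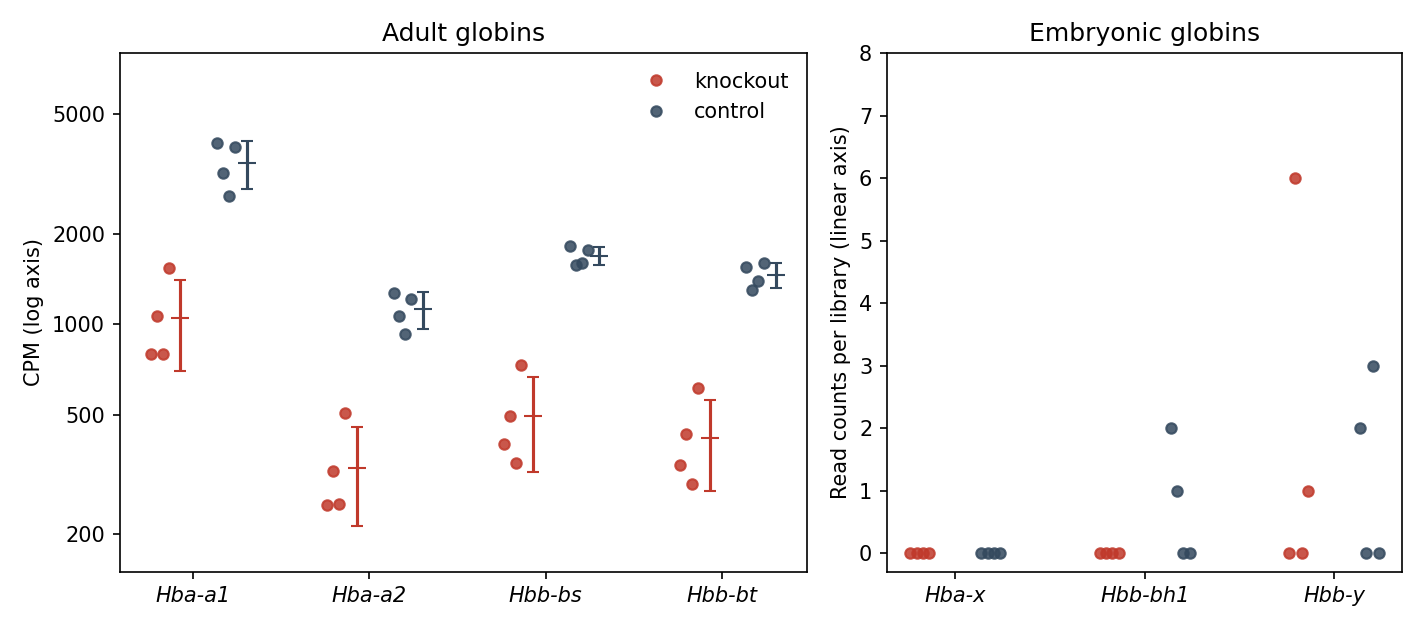
Level of each globin in each library. Left, the adult globins in CPM on a log axis, knockout in red and control in dark blue, with a bar for the mean and SD of 4 livers; right, the embryonic globins as raw read counts on a linear axis. The knockout points of each adult gene lie below all of its control points, and no embryonic gene exceeds 6 counts in any library.

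The embryonic genes gave almost no reads. Hba-x, the zeta-like alpha chain of yolk-sac red cells, had 0 counts in all 8 libraries, which allows up to 0.158 to 0.210 CPM in a library (3 counts of its total). Hbb-bh1 had 0 counts in every knockout liver and 2, 1, 0 and 0 counts in control livers 279 to 282. Hbb-y, the epsilon-like chain, had 0, 6, 0 and 1 counts in knockout livers 275 to 278 and 2, 0, 3 and 0 counts in control livers 279 to 282. The 2 beta-type genes were thus at a few reads at most, and 6 of the 7 Hbb-y counts of the knockout group came from liver 276.

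Set against the adult genes, the embryonic genes were a trace in both groups. They gave 7 of 155088 globin counts in knockout livers, or 0.00451% (95% exact Clopper-Pearson interval 0.00181% to 0.0093%). In control livers they gave 8 of 471816 globin counts, or 0.0017% (0.000732% to 0.00334%). The intervals overlap and cover counting error only, not the spread between livers. The difference between the groups was not tested. With all livers the mean embryonic share of length-scaled globin counts was 0.00549% in knockouts and 0.002% in controls, and without knockout 276 the difference, knockout minus control, was -0.00129 percentage points. No fold change is given for Hba-x, Hbb-bh1 or Hbb-y, since both groups were at or near the limit of 3 counts.

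The makeup of the adult globin RNA overlapped between the genotypes for every gene. All globins together took 0.174% to 0.346% of counts in knockout libraries and 0.653% to 0.849% in control libraries. Scaled by exon length, the alpha-type genes made up 59.1% ± 1.45 of globin counts in knockout and 57.8% ± 2.88 in those of controls (SD, n = 4 each). Within this, Hba-a1 gave 42.7% ± 1.03 in knockout and 41.3% ± 2.56 in control livers, and Hba-a2 gave 16.4% ± 0.595 in knockout and 16.5% ± 0.444 in control livers. Hbb-bs gave 21.2% ± 0.763 in knockout and 21.7% ± 1.47 in control livers, and Hbb-bt gave 19.7% ± 0.733 in knockout and 20.5% ± 1.53 in control livers. Control 281 had the lowest alpha share of all 8 livers, 53.6%, while the knockouts lay between 57.4% and 60.9% and the other controls at 58.6% or above.

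The order of the genes per length was the same in both groups. Hba-a1 stood at 1292 ± 434 CPM per kb of exon in knockout and 4239 ± 773 in control livers. Below it came Hbb-bs, at 643 ± 224 CPM per kb in knockout and 2202 ± 157 in control livers, and Hbb-bt, at 597 ± 201 CPM per kb in knockout and 2078 ± 196 in control livers. Hba-a2 was lowest of the 4, at 500 ± 181 CPM per kb in knockout and 1684 ± 233 in control livers. Levels of neighbours in this order below Hba-a1 overlapped between livers in both groups, but within each library the order by these lengths was the same. The lengths are unions of annotated exons, 667 bases for Hba-a2 and 703 for Hbb-bt. The main transcript of Hba-a2 has 554 bases and that of Hbb-bt 703. The place of Hba-a2 below Hbb-bt in every library depends on which length is used. How reads shared by a pair were assigned is not stated, and its part in the order was not tested.

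**Figure D2:**
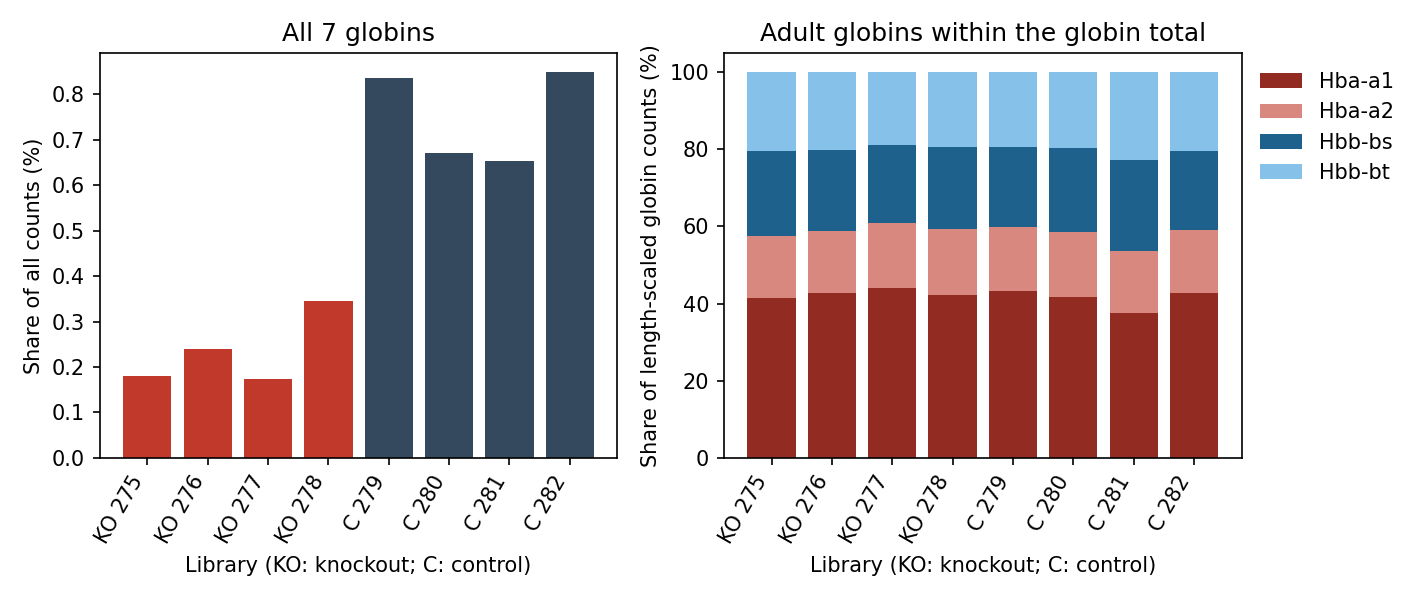
Globin RNA in each library (KO, knockout; C, control). Left, the share of all counts given by the 7 globins in percent; right, the share of each adult globin in the length-scaled globin counts of its library. The knockout bars on the left lie between 0.174% and 0.346% and the control bars between 0.653% and 0.849%, while the stacked shares on the right differ little between libraries.

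Ratios of genes within a library do not depend on how libraries are scaled, and 5 were tested by exact two-sided permutation over 70 assignments, where the smallest p that 4 against 4 allows is 0.0286. None passed after adjustment over the 5. A ratio that alone reached the smallest p would not pass after this adjustment either, so the misses say little. A p that misses the threshold does not show that the ratios were equal. The log2 ratio of Hba-a2 to Hba-a1 was -1.66 ± 0.04 in knockout and -1.61 ± 0.07 in control livers, a difference of -0.052 (SE 0.042, exact permutation p = 0.257, adjusted p = 0.429). That of Hbb-bt to Hbb-bs was -0.23 ± 0.03 in knockout and -0.21 ± 0.06 in control livers, a difference of -0.018 (SE 0.033, exact permutation p = 0.543, adjusted p = 0.543). The ratios in knockout livers were 0.965 and 0.987 times those in controls, and the part of reads shared by the copies in this was not tested.

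The balance of alpha to beta was followed through Hba-a1 and Hbb-bs. Their log2 count ratio was 1.09 ± 0.09 in knockout and 1.01 ± 0.19 in control livers, a difference of 0.08 (SE 0.10, exact permutation p = 0.543, adjusted p = 0.543). The difference rested on control 281, whose count ratio of 1.67 was the lowest of the 8, and without it the difference was -0.0066.

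Globin RNA was then set against RNA of other erythroid genes in the same library. Alas2 encodes the erythroid enzyme that starts heme synthesis. Hbb-bs counts were 5.64, 5.65, 5.00 and 6.22 times those of Alas2 in knockout livers 275 to 278, against 5.92, 6.87, 6.71 and 6.23 times in control livers 279 to 282. The log2 ratio differed by -0.19 (SE 0.08, exact permutation p = 0.0571, adjusted p = 0.286), and the groups overlapped.

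Slc4a1 encodes band 3, the anion exchanger of the red cell membrane. Hbb-bs counts were 2.64, 2.32, 2.44 and 2.09 times those of Slc4a1 in knockout livers, against 1.91, 2.25, 2.30 and 1.81 times in control livers. The log2 ratio differed by 0.20 (SE 0.11, exact permutation p = 0.143, adjusted p = 0.357). The difference thus had opposite signs against Alas2 and against Slc4a1, and neither passed the test.

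**Figure D3:**
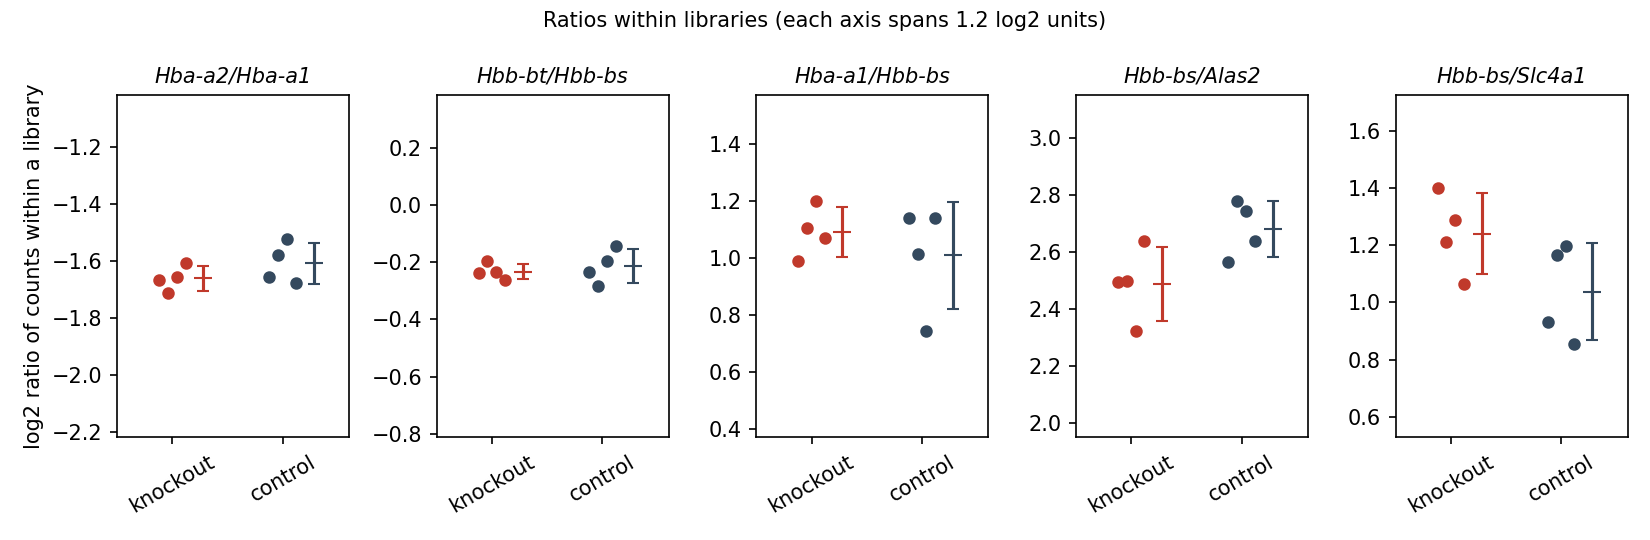
Log2 ratio of counts of gene pairs within each library, knockout in red and control in dark blue, with the mean and SD of 4 livers; each vertical axis spans the same number of log2 units. The groups overlap in all 5 panels, and the difference of means runs from -0.19 for Hbb-bs over Alas2 to 0.20 for Hbb-bs over Slc4a1.

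Most red cell membrane genes had a lower log2 fold change than the globins. All 16 listed genes of the erythroid membrane and its skeleton were called lower, as were 11.4% of all genes tested. Their median log2 fold change was -1.96, against a median of 0.01 over all genes tested. Gypc, a glycophorin, fell by 1.39 (SE 0.15), Epb41, the skeleton protein 4.1, by 0.73 (SE 0.08). Add2, beta adducin of the membrane skeleton, fell by 2.17 (SE 0.21). For each adult globin, 13 of these 16 genes had a lower log2 fold change than it did. Of 11 genes of late red cell maturation 9 were called lower and none higher, with a median of -1.23. Xpo7, an exportin of maturing erythroblasts, fell by 1.35 (SE 0.11), Bpgm, which makes the regulator of oxygen binding 2,3-bisphosphoglycerate, by 1.14 (SE 0.10), and Prdx2, an abundant red cell peroxidase, by 1.23 (SE 0.12).

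Genes that supply heme and iron to hemoglobin were lower too. Of 16 tested, 15 were called lower and none higher, against 11.4% and 9.27% of all genes tested. Their median log2 fold change was -1.05. Tfrc, the transferrin receptor, fell to 113 CPM in knockout livers, and stood at 322 CPM in those of controls (-1.51, SE 0.13). Steap3, an endosomal iron reductase, fell by 1.45 (SE 0.12), and Urod, an enzyme of the heme pathway, by 0.86 (SE 0.08). Alas2 fell to 86.5 ± 22.6 CPM in knockout livers, and stood at 265 ± 37.0 CPM in those of controls (-1.61, SE 0.18, adjusted p = 1.97e-04). Over the 43 genes of these 3 lists the median was -1.39, and 29 of them had a higher log2 fold change than each adult globin. Many of these genes are also used outside red cells, in hepatocytes among others.

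**Figure D4:**
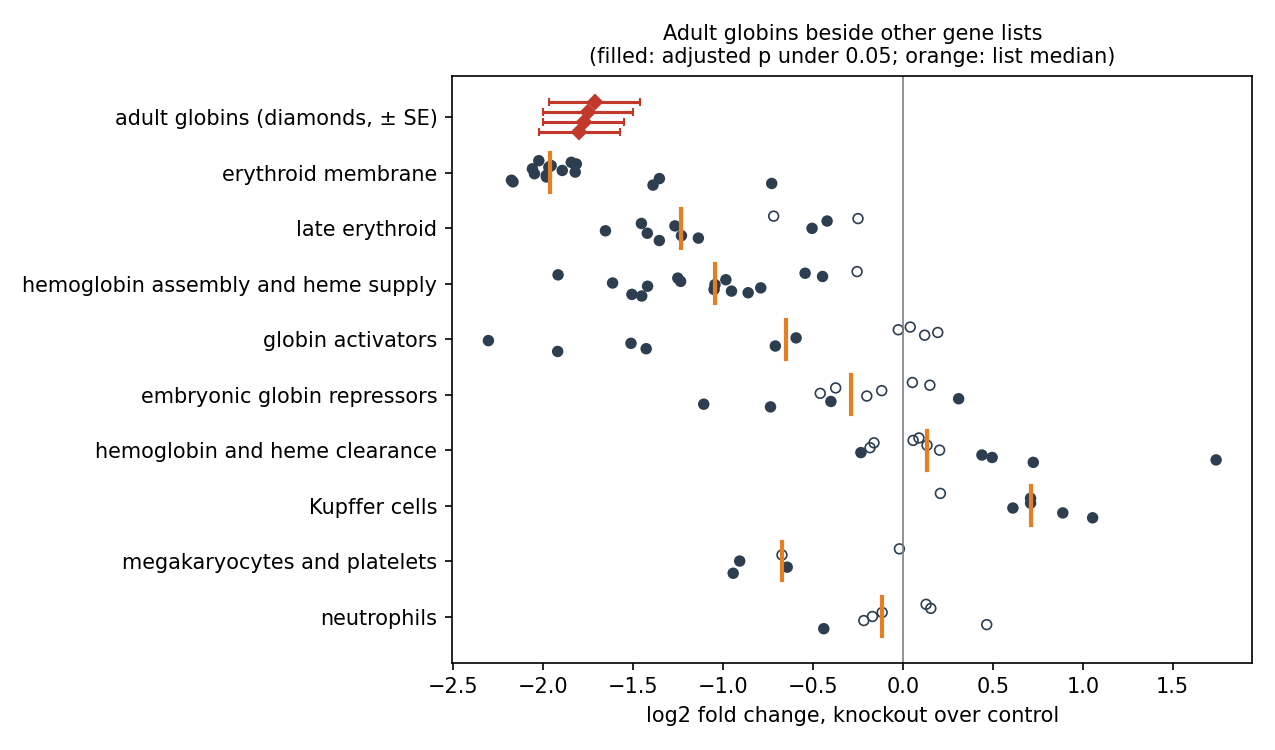
Log2 fold change, knockout over control, of the 4 adult globins (diamonds with SE) and of the genes of 9 lists (circles, filled where the adjusted p was under 0.05); the orange line is the list's median. The globins lie at -1.80 to -1.71, to the right of most membrane genes and to the left of most heme supply genes.

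The transcription factors that drive the adult globin genes were in part lower. Of 10 listed activators, 6 were called lower and none higher, against 11.4% and 9.27% of all genes tested. Their median was -0.65. Gata1, the zinc finger factor of erythroid and megakaryocytic cells, fell by 1.92 (SE 0.25). Its partner Tal1 fell by 1.43 (SE 0.18), and the bridging protein Lmo2 fell by 0.71 (SE 0.12). Klf1, which binds the CACCC box shown above for Hbb-bs, fell by 2.31 (SE 0.31, adjusted p = 8.16e-04) and was chosen for mention after its value was seen. The 4 that were not called, Ldb1, Cbfa2t3, Mafg and Mafk, ranged from -0.03 to 0.19.

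Repressors of embryonic globins were called in part. Of 10 listed, 3 were called lower and 1 higher, against 11.4% lower and 9.27% higher over all genes tested, with a median of -0.29. The 1 called higher is near that background. Dnmt1, the maintenance DNA methyltransferase, which dividing cells express in general, fell by 0.74 (SE 0.10). Sox6, which is itself an erythroid gene, fell by 1.11 (SE 0.16), and Mbd2, a methyl-DNA binding protein, fell by 0.40 (SE 0.09). Bcl11a, the best known silencer of embryonic and fetal globins, had 13.3 CPM in knockout and 18.2 CPM in control livers (-0.46, SE 0.22, adjusted p = 0.155). Nr2c2 was the 1 called higher (0.31, SE 0.10), a call lost without knockout 275, 276 or 277 or control 280, 281 or 282. The embryonic genes themselves stayed at 0 to 6 counts in all libraries.

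Of 5 factors of the fetal expression program, which in human cells includes fetal globin, 2 were called higher, against 9.27% of all genes tested. Igf2bp2 rose by 0.94 (SE 0.13) and Igf2bp1 by 1.02 (SE 0.20), both RNA-binding proteins of the same family. Lin28b, which blocks let-7 miRNAs, had 0.95 CPM in knockout and 2.43 CPM in control livers (-1.36, SE 0.53, adjusted p = 0.0816). It was called lower without knockout 278 (-1.76), without a filter on low counts (-1.36), in DESeq2 (-1.36) and in limma-voom (-1.93).

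Other members of the globin family were scarce. Of 7 listed genes, 3 passed the filter and 1 was called lower, against 11.4% of all genes tested. Hbq1b, a theta-type gene between Hba-a1 and Hba-a2, had 19, 19, 15 and 20 counts in knockout livers 275 to 278, against 85, 18, 38 and 68 in control livers 279 to 282. Control 280 lay among the knockouts. The log2 fold change was -1.67 (SE 0.44, adjusted p = 0.0122), and the call was lost without control 279 (-1.34) and in limma-voom (-1.54). Cygb, the cytoglobin of stellate cells, and Adgb, androglobin, were not called, at 0.36 (SE 0.22) and 1.59 (SE 0.75). Cygb was called higher without control 280 (0.65) and Adgb without knockout 278 (1.94).

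Genes next to the alpha cluster that are not globins had log2 fold changes nearer 0 than the adult globins. Nprl3, whose introns hold enhancers of the alpha genes, was not called (-0.26, SE 0.15, adjusted p = 0.251). Of the 5 neighbours tested, 2 were called lower and none higher, against 11.4% and 9.27% of all genes tested. Their median was -0.37. Snrnp25, a splicing protein gene, was called lower (-0.995, SE 0.21). Polr3k, a subunit of RNA polymerase III, was called lower (-0.51, SE 0.18, adjusted p = 0.0479) but in only 7 of 18 alternative fits. Rhbdf1 was 0.41 (SE 0.15, adjusted p = 0.0528) and was called higher in 7 of 18 alternative fits.

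Some genes that bind and clear free hemoglobin and heme were higher. Of 11 tested, 4 were called higher and 1 lower, with a median of 0.13, against 9.27% higher and 11.4% lower over all genes tested. The 1 called lower is near that background. Cd163, the macrophage receptor for haptoglobin-hemoglobin complexes, rose by 1.74 (SE 0.26), with 36.1 CPM in knockout and 10.8 CPM in control livers. Hmox1, which opens the heme ring, rose by 0.72 (SE 0.08), and Hp, haptoglobin, by 0.50 (SE 0.10). Lrp1 was the 1 called lower (-0.23), in 8 of 18 alternative fits. Kupffer cell markers were higher in the same livers, with a summed level of 769 to 956 CPM in knockout and 482 to 533 CPM in control livers, and 5 of 6 called higher, Cd5l (0.89, SE 0.11) and Csf1r (0.61, SE 0.09) among them. The part of these markers in the rise of Cd163 was not tested.

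Markers of blood and other cells were read beside the globins. Over all genes tested, 11.4% were called lower and 9.27% higher. The 9 erythroid markers were all called lower, with a summed level of 332 to 735 CPM in knockout and 1426 to 2068 CPM in control livers, and their fall and that of the globins cannot be told apart here. Slc4a1 fell by 1.96 (SE 0.34). Neutrophil markers summed to 579 to 925 CPM in knockout and 754 to 968 CPM in control livers, ranges that overlap. Of 7, 1 was called lower, Ltf (-0.44, SE 0.13), a call lost without knockout 276 or 277, control 281 or 282, and with library size alone. The 1 called lower is near the 11.4% called lower over all genes tested. Ngp was not called (-0.12, SE 0.14). Platelet and megakaryocyte markers summed to 62.0 to 100 CPM in knockout and 96.9 to 137 CPM in control livers, with 3 of 5 called lower, Pf4 (-0.64, SE 0.17) among them, while Itga2b (-0.02, SE 0.13) was not called. Endothelial markers were 811 to 963 CPM in knockout and 613 to 664 CPM in control livers, and all 5 were called higher, Stab2 (0.41, SE 0.08) and Kdr (0.42, SE 0.08) among them. Of 6 hepatocyte markers, 2 were called lower, 1 higher and 3 were not called. Alb fell by 1.08 (SE 0.11), with 32558 CPM in knockout and 68617 CPM in control livers, the largest difference in CPM among the 6. Ahsg rose by 0.37 (SE 0.09). All markers of these lists passed the filter on low counts, and their part in the fall of the globins was not tested.

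The genes whose profile over the 8 livers was nearest to that of Hbb-bs were found by the root-mean-square difference between log2 CPM profiles centred on each gene's mean. Ranked were 13476 tested genes outside the set, with a mean of at least 1 CPM. Genes with a clone or predicted name were left out. The other adult globins lay at 0.041 (Hbb-bt), 0.095 (Hba-a2) and 0.133 (Hba-a1). Among the 8 nearest other genes were Cd24a, a surface glycoprotein carried by erythroblasts and other cells (0.073), and the histone gene Hist1h1a (0.116). Epb42, the red cell membrane protein 4.2 (0.133), Car2, a carbonic anhydrase (0.134), Alas2 (0.140), Fam47e (0.142) and the histone gene Hist1h2bj (0.144) were also among them. In each of these 7 genes, as in Hbb-bs, knockout 278 was the highest of the knockouts. The measure is set mostly by the distance between the genotypes, which all of these genes share, and it says nothing of common control.

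**Figure D5:**
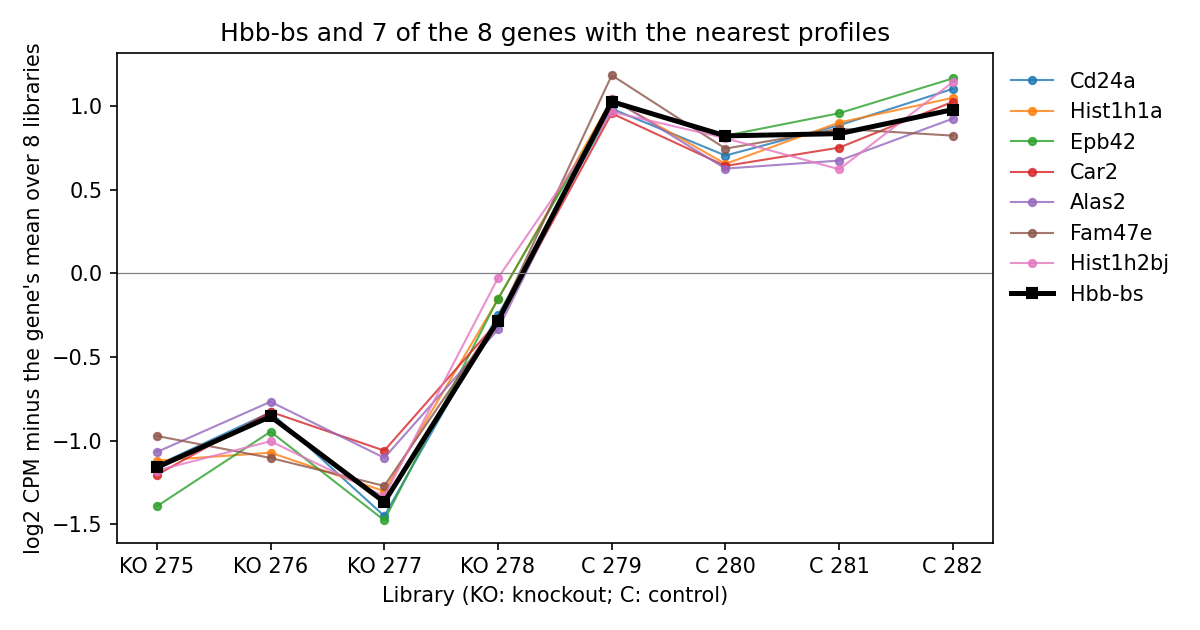
Centred log2 CPM of Hbb-bs (black squares) and of 7 of the 8 genes with the nearest profiles, in the 4 knockout (KO) and 4 control (C) livers; lines only join the points of a gene. Hbb-bs lies between -1.37 and -0.28 in knockouts and between 0.82 and 1.03 in controls, and knockout 278 is the highest knockout for every gene drawn.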

How the data were processed

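RNA came from whole liver of 4 knockout and 4 control pups, each its own library. The deposited values are whole-number read counts per Ensembl gene. The authors aligned reads with Rsubread 2.20.0 in R 4.4.1, per the labels' protocols, to a mouse build written GRMm38 and read here as GRCm38, and counting used featureCounts, as the submitters' processing notes record. The sources used here state no annotation, strand or multi-mapping setting.

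Counts were fitted with edgeR 4.0.16 in R 4.3.3: filterByExpr (minimum count 10, minimum total 15), TMM, the robust quasi-likelihood test and Benjamini-Hochberg adjustment over 18274 genes at 0.05. The SE is the log2 fold change divided by the square root of F. Ratios add 0.5 to each count. Log2 CPM use a prior count of 2. Exon lengths are unions of GENCODE M21 exons; 48058 of 48440 genes matched a symbol. Libraries of a group differed beyond counting noise (chi-square per degree of freedom 11.9 to 21.8). The fit was tested on simulated data. Of 10 planned ratios, those with an embryonic gene were not computed, because their counts were near 0, and a further partner gene is not analysed here. No profile was matched to Hbb-bh1, which did not pass the filter. Named genes are the 7 members, the ratio partners, the 3 smallest p of each globin or erythroid list, the 8 nearest profiles and the 2 most abundant genes of each cell list. Klf1, Bcl11a, Nr2c2, Nprl3, Lrp1, Ldb1, Cbfa2t3, Mafg, Mafk, Hbq1a, Hbb-bh2 and Hba-ps4 were added after their values were seen. Of the genes the rule names, 2 are not reported here. Members and lists were chosen with earlier results of these data known. DESeq2 1.42.0 and limma 3.58.1 served as alternatives. Figures used matplotlib 3.10.9.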

Additional observations from a re-analysis of the deposited data

How the results depend on the processing

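The number of genes called was 3782 (1694 higher, 2088 lower) and ran from 2943 to 3929 when 1 library was left out and from 3751 to 4268 under the other 10 settings. With library size as the only scaling, the share of higher calls was 57.6%, against 44.8%. No call of an adult globin changed. Leave-one-out log2 fold changes were -1.96 to -1.60 for Hba-a1, -2.03 to -1.63 for Hba-a2, -2.03 to -1.64 for Hbb-bs and -2.04 to -1.67 for Hbb-bt; with the copies of a pair summed they were -1.72 for alpha and -1.79 for beta. Among the ratios, 2 changed sign when a library was left out: Hbb-bt to Hbb-bs ran from -0.042 to 0.0053 and Hba-a1 to Hbb-bs from -0.0066 to 0.13. With all libraries these differences were -0.018 (SE 0.033) and 0.08 (SE 0.10). With 3 livers against 4 the exact test cannot pass the threshold. Among named genes Itga2b, not called, turned to 0.011 with upper-quartile scaling and 0.049 with library size alone, and ran from -0.12 to 0.093 when 1 library was left out. No paired analysis was possible because no litter is stated for any single pup. With 4 livers a group and no ages, modest changes can be missed and age cannot be separated.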

Other observations

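Hba-ps4, an alpha-type pseudogene on chromosome 17, was looked at after its counts were seen. It had 68, 78, 73 and 117 counts in knockout livers 275 to 278 and 273, 204, 215 and 317 in control livers 279 to 282. These were 0.362% ± 0.0129 of the summed Hba-a1 and Hba-a2 counts in knockout and 0.361% ± 0.051 in those of controls (SD, n = 4 each). The pseudogene's counts thus followed those of the adult alpha genes in both groups. How reads that map to several places were treated is not stated, and their part in this was not tested.

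Hbq1a, the second theta-type gene, had 5, 14, 6 and 2 counts in knockout livers and 12, 6, 10 and 12 in control livers, and did not pass the filter on low counts. Hbb-bh2, a beta-type gene beside Hbb-bh1, had 0 counts in all knockout livers and 3 in all over the control livers.

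Per length of exon, Hbb-bs stood at 643 ± 224 CPM per kb in knockout and 2202 ± 157 in control livers, while Slc4a1 stood at 43.9 ± 19.8 CPM per kb in knockout and 170 ± 31.4 in control livers. Globins took under 1% of the counts of every library.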
